A study of Mus musculus with 6 samples.

Results

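Genes of the citric acid cycle and of the reactions that feed fuel into it were followed in mouse bone marrow-derived macrophages (BMMs) that were kept as macrophages or turned toward osteoclasts. The set held 40 genes, matched by symbol, of the 24940 genes in the deposited table, and it was divided by role into 7 genes of pyruvate entry, 13 of the citric acid cycle, 17 of fatty acid oxidation and 3 of glutamine entry. RNA was sequenced from 3 conditions with 2 libraries each. Cells of the RANKL + LEA condition received M-CSF, RANKL and LEA, the ethyl acetate fraction of a water extract of the shiitake mushroom Lentinula edodes. Cells of the RANKL condition received M-CSF and RANKL, and cells of the no RANKL condition received M-CSF alone. The doses were 30 ng/mL for M-CSF, on which macrophages depend for survival, 100 ng/mL for RANKL, the cytokine that drives osteoclast formation, and 10 µg/mL for LEA. No altered allele is named for any of the groups. The sample labels name C57BL/6 mice aged 6-8 weeks and TRIzol extraction, whereas the methods name ICR males, the RNeasy kit and a stranded library kit. When the cells were harvested for RNA-seq, which vehicle the cells without LEA received and whether replicate libraries came from separate cultures or mice is not stated. The p-values therefore cover no more than the variation among these libraries, and that variation may be technical.

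Mitochondria burn pyruvate from glucose, fatty acids and glutamine. Pyruvate is turned into acetyl-CoA by the pyruvate dehydrogenase complex, fatty acids are brought in as carnitine esters and shortened by beta-oxidation to acetyl-CoA, and glutamine carbon enters as 2-oxoglutarate. The citric acid cycle oxidizes the acetyl group and hands its electrons to the respiratory chain, and osteoclasts, which pump acid onto bone, are known as cells rich in mitochondria.

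The 6 libraries held 46384412 to 49592191 mapped reads. Every gene of the set passed the filter on low values (0.5 FPKM, fragments scaled to exon length and to the mapped reads of the library, in at least 2 libraries), as did 11905 genes in all. The lowest count behind any value of the set was 341 reads, and the values ran up to 437 FPKM for Mdh2 and down to 1.71 FPKM for Pcx. The labelled cell states were visible in their markers, which are given with the results they move with. Markers of B cells (sum of 5 genes), T and NK cells (4) and erythroid cells (6) summed to at most 0.308 FPKM in any library, and Pax5, Hbb-bt and Hbb-bs were at 0 in all of them. Neutrophil markers summed to 1.73 and 1.13 FPKM with RANKL + LEA, 0.442 and 0.621 with RANKL, and 3.21 and 3.83 without RANKL, with Ly6g at 0 throughout. Stromal markers summed to 4.15 and 5.84 FPKM with RANKL + LEA, 3.30 and 3.50 with RANKL, and 6.82 and 7.03 without RANKL, with Bglap at 0 throughout. Endothelial markers summed to 3.75 and 3.35 FPKM with RANKL + LEA, 2.90 and 2.88 with RANKL, and 1.01 and 1.09 without RANKL, nearly all of it from Kdr, with Tek at 0 throughout. In bulk RNA, fewer cells of a type and less RNA per cell cannot be told apart.

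RANKL raised most of the fuel oxidation genes. Of the 40 genes, 28 were higher with RANKL than without it (limma on log2(FPKM + 0.1), Benjamini-Hochberg adjusted p under 0.05 over all genes tested and at least 1.5-fold), against 17.8% of all genes tested. None was called lower, where 17.8% of all genes were. The same fit had 37 of the 40 at an unadjusted p under 0.05, 35 of them higher and 2 lower. Of all 11905 genes tested, 6634 had such a p in either direction. Voom on recovered reads also called 0 lower. Without the fold limit, 32 were higher and 2 lower (Cpt1a and Hadh), against 25.0% and 24.3% of all genes. The median log2 fold change of the set was 0.89, beside 0.001 over all genes tested. The libraries of both conditions did not overlap for 36 genes that were higher with RANKL, where 37.9% of all genes stood in that way, and for 3 that were lower, where 37.1% did.

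The roles differed in how many of their genes were called, where 17.8% of all genes tested were higher with RANKL. Pyruvate entry had 5 of 7 genes higher with RANKL and a median log2 fold change of 1.53. The citric acid cycle had 11 of 13 and a median of 1.25. Fatty acid oxidation had 11 of 17 and a median of 0.65, and glutamine entry had 1 of 3 and a median of 0.25. These counts and medians are descriptions, and the difference between roles was not tested. Glutamine entry holds too few genes to set its count against the share over all genes.

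**Figure D1:**
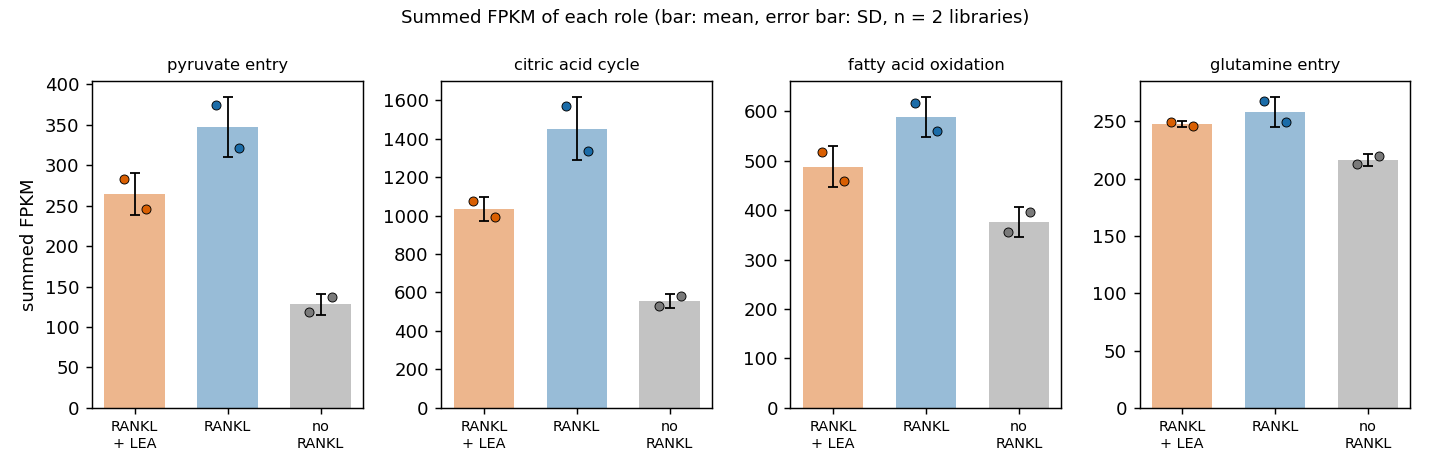
Summed FPKM of the genes of each role (vertical axis) in each condition (horizontal axis), with bars for the mean, error bars for the SD of 2 libraries and points for the libraries. The citric acid cycle genes average 1033 with RANKL + LEA, 1453 with RANKL and 557 without RANKL, and the glutamine entry genes lie closest together, at 248, 259 and 216.

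Per length, the summed level of the 40 genes was 2125 and 1940 FPKM with RANKL + LEA, 2830 and 2465 FPKM with RANKL, and 1218 and 1335 FPKM without RANKL. The 3 conditions did not overlap in this sum, and RANKL + LEA lay between the others. The plot of summed levels by role shows that pyruvate entry genes averaged 264 ± 25.7 FPKM with RANKL + LEA, 347 ± 37.5 with RANKL and 128 ± 12.8 without RANKL (SD, n = 2 each), a ratio of 2.71 for RANKL over no RANKL. The same ratio was 2.61 for the citric acid cycle, 1.57 for fatty acid oxidation and 1.20 for glutamine entry. The 40 genes took 0.559% and 0.536% of the reads on genes with RANKL + LEA, 0.730% and 0.664% with RANKL, and 0.339% and 0.355% without RANKL.

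Marker genes moved with these levels. Osteoclast markers (9 genes) summed to 2721 and 2599 FPKM with RANKL + LEA, 5985 and 5160 with RANKL, and 36.0 and 36.1 without RANKL. Calcr was at 0 in both libraries without RANKL. Of these markers, 9 of 9 were called higher with RANKL, against 17.8% of all genes tested. With LEA added to RANKL, 9 of 9 were called lower, against 1.77%. Macrophage markers (8 genes) summed to 7251 and 5672 FPKM with RANKL + LEA, 4400 and 3710 with RANKL, and 9907 and 13491 without RANKL. Most of this sum was Lyz2, with means of 5269, 2850 and 9830 FPKM in the same order. With RANKL 7 of 8 were called lower, against 17.8% of all genes tested. With LEA added to RANKL, 4 of 8 were called higher and 0 lower, against 4.54% and 1.77% of all genes tested. Csf1r (-0.12) and Cd68 (-0.34) had negative log2 fold changes there. The part of the shift in cell state in the changes of the fuel oxidation genes was not tested.

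The pyruvate dehydrogenase complex rose as a whole, with all 5 of its measured structural genes called. Pdhb, the beta subunit of its E1 enzyme that decarboxylates pyruvate, was at 78.4 and 64.8 FPKM with RANKL + LEA, 112 and 89.3 with RANKL, and 24.8 and 30.1 without RANKL. Both RANKL libraries lay far above both without RANKL, and the log2 fold change for RANKL was 1.87 ± 0.16 (SE, limma adjusted p = 4.12e-05). Dlat, the E2 acetyltransferase, was at 26.0 and 26.1 FPKM with RANKL + LEA, 38.1 and 33.4 with RANKL, and 10.4 and 10.6 without RANKL. Its log2 fold change for RANKL was 1.75 ± 0.11 (SE, limma adjusted p = 7.05e-06), with the 3 conditions apart from each other. Dld, the E3 dihydrolipoamide dehydrogenase shared with the 2-oxoglutarate dehydrogenase complex, was at 71.7 and 60.7 FPKM with RANKL + LEA, 88.4 and 82.7 with RANKL, and 27.2 and 29.6 without RANKL. Its log2 fold change was 1.59 ± 0.12 (SE, limma adjusted p = 1.96e-05).

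Pdha1, the X-linked E1 alpha subunit whose phosphorylation switches the complex off, was at 54.7 and 49.4 FPKM with RANKL + LEA, 78.0 and 65.7 with RANKL, and 22.3 and 27.4 without RANKL. All RANKL libraries lay above those without it, and the log2 fold change was 1.53 ± 0.14 (SE, limma adjusted p = 6.16e-05). Map3k15 on the opposite strand shares 16.2% of the annotated exon bases of Pdha1, and because both strands were counted the reads of the pair cannot be told apart there. Pdhx, which anchors E3 in the complex, had a log2 fold change of 1.38 ± 0.16 (SE, limma adjusted p = 0.000278). The remaining genes of this role, which make oxaloacetate or pyruvate by other routes, did not pass. Pcx, pyruvate carboxylase, was the least abundant gene of the set, at 2.52 and 2.41 FPKM with RANKL + LEA, 2.71 and 2.10 with RANKL, and 1.78 and 1.71 without RANKL, and its log2 fold change of 0.43 ± 0.17 for RANKL had a limma adjusted p of 0.0663. Its value reached a call (0.60, adjusted p = 0.035) when RANKL replicate 2 was left out. Me2, the mitochondrial malic enzyme, had a log2 fold change of 0.30 ± 0.12 (SE, limma adjusted p = 0.0708).

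**Figure D2:**
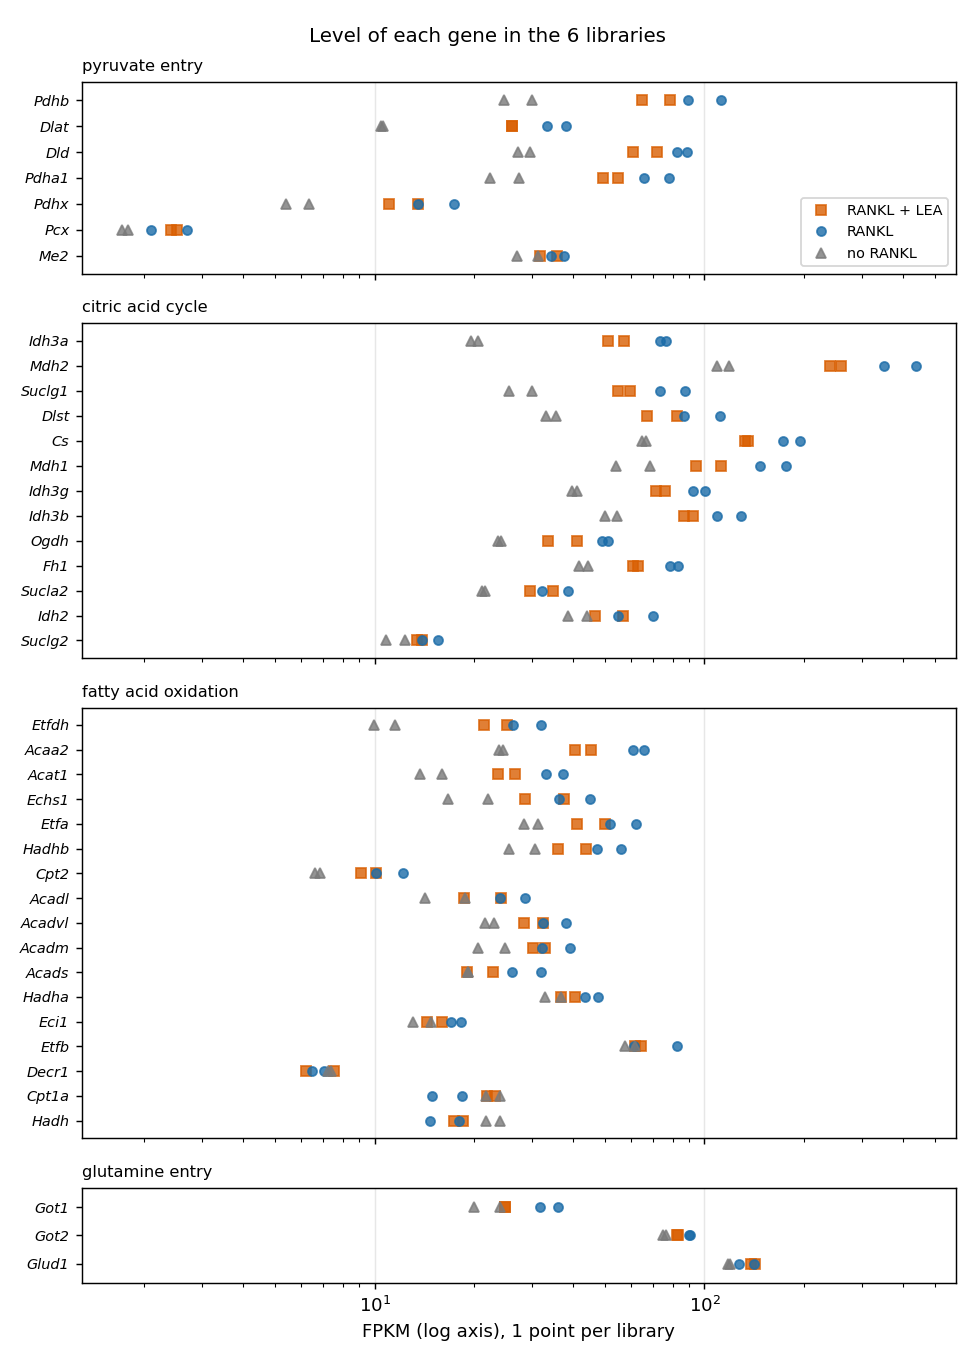
FPKM of each of the 40 genes (rows, grouped by role, the largest RANKL response at the top of each role) in the 6 libraries (horizontal log axis), with squares for RANKL + LEA, circles for RANKL and triangles for no RANKL. For Pdhb the RANKL libraries sit at 89.3 and 112 and those without RANKL at 24.8 and 30.1, whereas for Cpt1a and Hadh the RANKL libraries lie to the left of those without RANKL.

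Within the cycle, RANKL raised genes of each step represented in the set, and the size differed between subunits of one enzyme. Cs, citrate synthase, which takes in the acetyl group, was at 135 and 133 FPKM with RANKL + LEA, 195 and 173 with RANKL, and 64.7 and 66.6 without RANKL. The conditions were apart, and the log2 fold change for RANKL was 1.48 ± 0.10 (SE, limma adjusted p = 1.26e-05). Idh3a, the catalytic subunit of the NAD-dependent isocitrate dehydrogenase, had the largest RANKL response of the 40 genes. It was at 57.0 and 51.2 FPKM with RANKL + LEA, 76.3 and 73.2 with RANKL, and 19.6 and 20.6 without RANKL, a log2 fold change of 1.89 ± 0.10 (SE, limma adjusted p = 3.9e-06). The other subunits of the same enzyme, Idh3b and Idh3g, had log2 fold changes of 1.19 ± 0.11 (SE, limma adjusted p = 8.71e-05) and 1.25 ± 0.10 (SE, limma adjusted p = 2.96e-05).

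Idh2, the NADP-dependent isocitrate dehydrogenase of mitochondria, moved less. It was at 56.6 and 46.6 FPKM with RANKL + LEA, 69.8 and 54.8 with RANKL, and 38.7 and 44.0 without RANKL. Its RANKL libraries lay above those without RANKL, but the log2 fold change of 0.58 ± 0.15 (SE, limma adjusted p = 0.0142) fell just short of 1.5-fold, and it was called with TMM scaling (0.59), with voom, or with RANKL replicate 2 or no RANKL replicate 2 left out (0.68 to 0.76). The FPKM of Idh3a over that of Idh2 in the same library was 1.01 and 1.10 with RANKL + LEA, 1.09 and 1.33 with RANKL, and 0.506 and 0.468 without RANKL. In the libraries without RANKL Idh2 was thus the more abundant of the pair, and in the other 4 libraries Idh3a was slightly the more abundant.

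The 2-oxoglutarate dehydrogenase complex, which releases the second carbon dioxide of the cycle, rose in both of its own genes. Ogdh, its E1 enzyme, was at 33.6 and 41.0 FPKM with RANKL + LEA, 51.1 and 48.9 with RANKL, and 24.2 and 23.6 without RANKL, with no overlap and a log2 fold change for RANKL of 1.06 ± 0.12 (SE, limma adjusted p = 0.000196). Dlst, its E2 succinyltransferase, was at 82.7 and 66.8 FPKM with RANKL + LEA, 111 and 87.0 with RANKL, and 33.0 and 35.6 without RANKL, and its log2 fold change was 1.52 ± 0.15 (SE, limma adjusted p = 0.000105). Succinyl-CoA ligase, the step that makes ATP or GTP directly, was less even. Its shared alpha subunit Suclg1 was at 59.5 and 54.8 FPKM with RANKL + LEA, 87.0 and 73.4 with RANKL, and 25.6 and 30.0 without RANKL, a log2 fold change of 1.52 ± 0.13 (SE, limma adjusted p = 4.1e-05).

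The beta subunits that set the nucleotide of this ligase moved less than the alpha subunit. Sucla2, of the ATP form, had a log2 fold change of 0.72 ± 0.13 (SE, limma adjusted p = 0.00241), just under the fold limit (0.58) without RANKL replicate 1. Suclg2, of the GTP form, had 0.34 ± 0.12 (SE, limma adjusted p = 0.0429) and was under 1.5-fold. The FPKM of Suclg1 over that of Sucla2 was 1.71 and 1.85 with RANKL + LEA, 2.25 and 2.28 with RANKL, and 1.21 and 1.39 without RANKL, so the conditions were apart in this ratio as well. Fh1, fumarase, had a log2 fold change of 0.91 ± 0.10 (SE, limma adjusted p = 0.000137).

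Malate dehydrogenase, which closes the cycle and also serves the malate-aspartate shuttle, rose in both compartments. Mdh2, the mitochondrial enzyme and the most abundant gene of the set, was at 260 and 241 FPKM with RANKL + LEA, 437 and 351 with RANKL, and 109 and 119 without RANKL. Its log2 fold change for RANKL was 1.78 ± 0.13 (SE, limma adjusted p = 1.78e-05). Mdh1, the cytosolic enzyme, was at 112 and 94.0 FPKM with RANKL + LEA, 176 and 147 with RANKL, and 53.8 and 68.4 without RANKL, a log2 fold change of 1.41 ± 0.16 (SE, limma adjusted p = 0.00018). For both genes the 6 libraries fell into 3 separate pairs in the order of RANKL, RANKL + LEA and no RANKL.

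**Figure D3:**
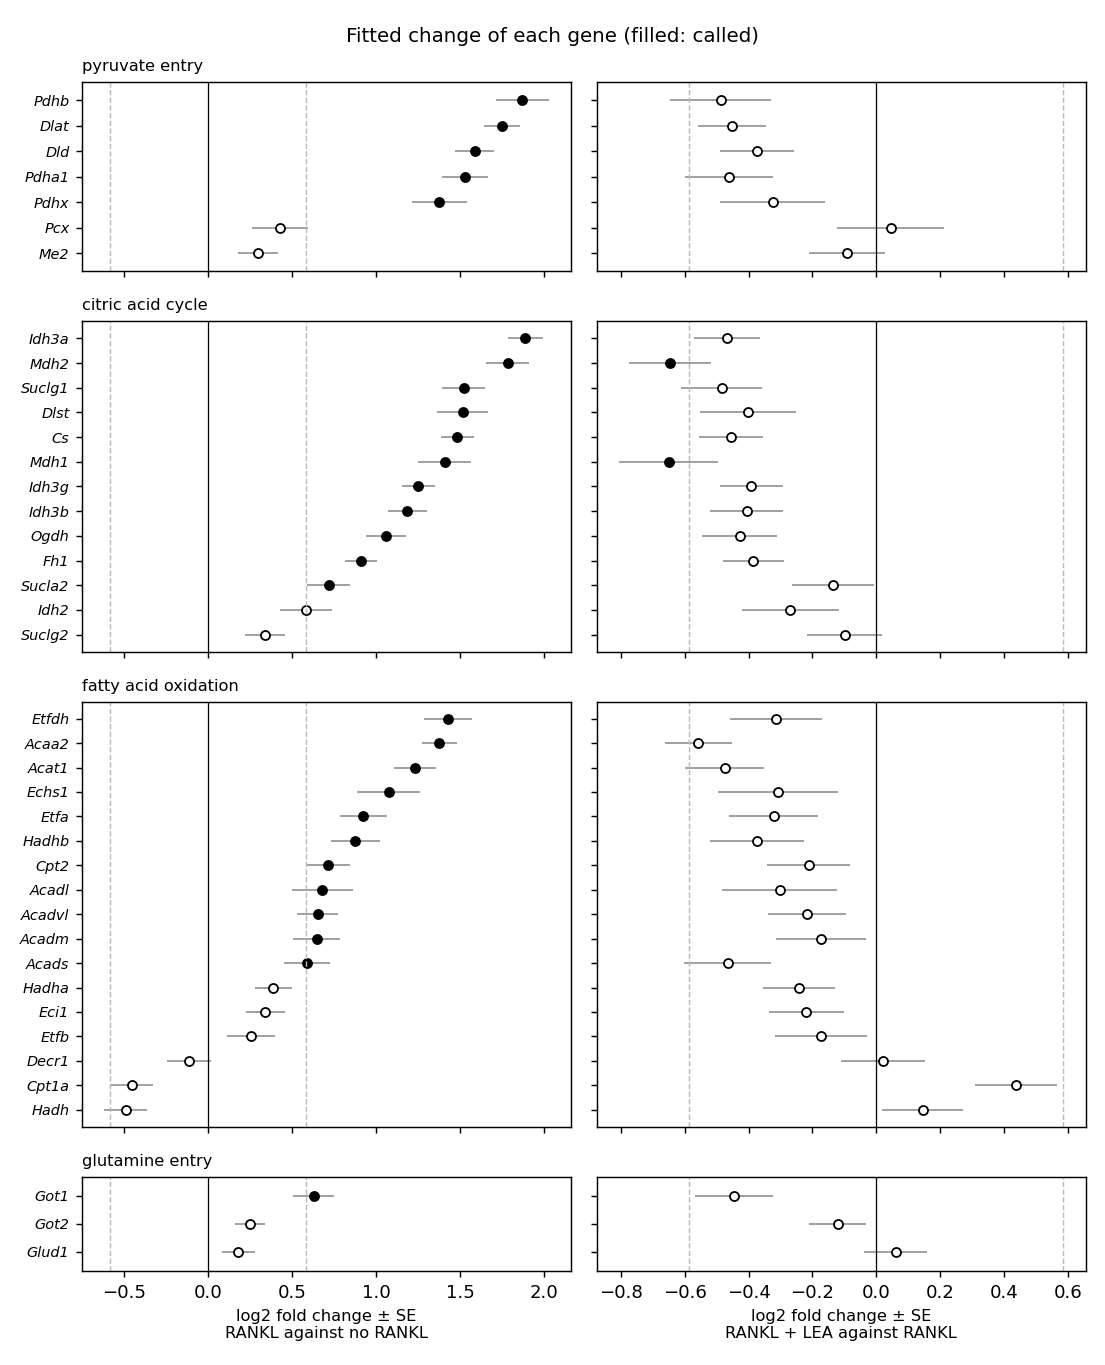
Fitted log2 fold change with its SE (horizontal axis) for each of the 40 genes (rows, grouped by role), for RANKL against no RANKL (left) and RANKL + LEA against RANKL (right, on its own scale). Filled points passed the test, dashed lines mark 1.5-fold and the solid line marks 0. On the left 28 genes are filled, and on the right Mdh1 and Mdh2 are.

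Genes of fatty acid oxidation differed widely, with log2 fold changes for RANKL of -0.49 to 1.43. Etfdh, which passes electrons from beta-oxidation to ubiquinone, was at 25.3 and 21.5 FPKM with RANKL + LEA, 32.0 and 26.3 with RANKL, and 9.96 and 11.5 without RANKL, a log2 fold change for RANKL of 1.43 ± 0.14 (SE, limma adjusted p = 0.000109). Acaa2, a mitochondrial thiolase that releases acetyl-CoA, was at 45.3 and 40.5 FPKM with RANKL + LEA, 65.6 and 60.5 with RANKL, and 24.6 and 23.9 without RANKL, and its log2 fold change was 1.38 ± 0.10 (SE, limma adjusted p = 2.44e-05). In both genes the 3 conditions did not overlap. Acat1, the acetoacetyl-CoA thiolase that also serves ketone body use, was at 26.7 and 23.7 FPKM with RANKL + LEA, 37.2 and 33.0 with RANKL, and 13.8 and 16.0 without RANKL, a log2 fold change of 1.23 ± 0.12 (SE, limma adjusted p = 0.000114). Echs1, the short-chain enoyl-CoA hydratase, was at 37.5 and 28.5 FPKM with RANKL + LEA, 45.1 and 36.3 with RANKL, and 16.6 and 22.0 without RANKL, a log2 fold change of 1.08 ± 0.19 (SE, limma adjusted p = 0.00203).

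The acyl-CoA dehydrogenases, which make the first double bond, moved by smaller amounts of much the same size. Acadl, Acadvl, Acadm and Acads, for long, very long, medium and short chains, had log2 fold changes of 0.68, 0.65, 0.65 and 0.59 (limma adjusted p of 0.0154, 0.0028, 0.00592 and 0.008). All 4 calls ended without RANKL replicate 1 (0.55, 0.54, 0.50 and 0.45), and those of Acadl (0.48) and Acadm (0.51) also without no RANKL replicate 1. The call of Acadl ended as well without the filter on low values (adjusted p = 0.0525), and that of Acads with a pseudocount of 1 or quantile normalization (0.57 and 0.58). In annotation, 42.9% of the exon bases of Acadvl are shared with Dvl2 on the opposite strand. Among the genes as counted in the deposited table, only Mir324 overlaps the span of Acadvl. Cpt2, the inner membrane carnitine palmitoyltransferase, had 0.72 ± 0.13 (SE, limma adjusted p = 0.00252), and its value was 0.58 without RANKL replicate 1. Etfa, the alpha subunit of the electron transfer flavoprotein, had a log2 fold change of 0.92 ± 0.14 (SE, limma adjusted p = 0.000955).

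Of this role, 6 genes were not called, and 3 of them had negative values. Cpt1a, the outer membrane carnitine palmitoyltransferase that controls the entry of long-chain fatty acids, was at 23.2 and 21.9 FPKM with RANKL + LEA, 18.5 and 14.9 with RANKL, and 21.7 and 24.0 without RANKL. Both RANKL libraries lay below all 4 others, with a log2 fold change for RANKL of -0.46 ± 0.13 (SE, limma adjusted p = 0.0196), which was under 1.5-fold. Hadh, the dehydrogenase for medium and short chains, was at 17.5 and 18.5 FPKM with RANKL + LEA, 18.0 and 14.7 with RANKL, and 21.8 and 24.0 without RANKL, a log2 fold change of -0.49 ± 0.13 (SE, limma adjusted p = 0.0137). Without RANKL replicate 1 both genes passed as lower, at -0.61 and -0.64. Decr1, a reductase needed for unsaturated fatty acids, had a value of -0.11 ± 0.13 (SE, limma adjusted p = 0.502).

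The others not called were Hadha at 0.39, Eci1, an enoyl-CoA isomerase, at 0.34 and Etfb, the beta subunit of the electron transfer flavoprotein, at 0.26 (limma adjusted p of 0.0211, 0.0418 and 0.18). Etfb was at 61.1 and 82.4 FPKM in the RANKL libraries and at 57.2 and 61.7 in those without RANKL, which overlapped. Its transcript in the table is a noncoding one, and 58.2% of its annotated exon bases are shared with Gm45233 and Mir7051. The ratio of Cpt1a to Cpt2 was 2.30 and 2.41 with RANKL + LEA, 1.51 and 1.48 with RANKL, and 3.30 and 3.50 without RANKL. The ratio of Cs to Cpt1a, the entry steps of the cycle and of fatty acid import, was 5.85 and 6.05 with RANKL + LEA, 10.6 and 11.6 with RANKL, and 2.98 and 2.78 without RANKL. The 3 conditions did not overlap in either ratio, and in the RANKL libraries the first was lowest and the second highest.

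Hadha and Hadhb, the alpha and beta subunits of the trifunctional protein that carries out the last steps on long chains, lie head to head on chromosome 5 with 272 bases between their first bases (30154980 on the minus strand and 30155253 on the plus strand). The stretch next to the Hadhb start is shown because the pair shares it and yet differed in size of change (RefSeq, GRCm38.p6, the mm10 build, chr5:30155003-30155252, plus strand, 5′ to 3′, all in lower case since no motif searched was found in it).
Hadha and Hadhb: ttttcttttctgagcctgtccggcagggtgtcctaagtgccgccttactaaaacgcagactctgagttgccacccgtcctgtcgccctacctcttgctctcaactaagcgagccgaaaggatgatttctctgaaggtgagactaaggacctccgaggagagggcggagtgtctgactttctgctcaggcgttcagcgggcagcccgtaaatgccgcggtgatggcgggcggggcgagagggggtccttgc
Hadhb was at 43.8 and 35.9 FPKM with RANKL + LEA, 56.0 and 47.2 with RANKL, and 25.5 and 30.6 without RANKL, and it rose with RANKL by a log2 fold change of 0.88 ± 0.15 (SE, limma adjusted p = 0.00167). Hadha was at 40.4 and 36.6 FPKM with RANKL + LEA, 47.6 and 43.5 with RANKL, and 32.8 and 36.7 without RANKL, and its 0.39 ± 0.11 did not reach 1.5-fold. The ratio of Hadhb to Hadha was 1.08 and 0.980 with RANKL + LEA, 1.18 and 1.09 with RANKL, and 0.777 and 0.832 without RANKL, so that Hadhb was the more abundant with RANKL alone, Hadha without RANKL, and the pair was about level with RANKL + LEA.

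Among the roles, the 3 genes of glutamine entry had the smallest median change with RANKL, a difference that was not tested. Further genes of glutamine handling are given below. Got1, the cytosolic aspartate aminotransferase, was at 24.9 and 24.9 FPKM with RANKL + LEA, 36.1 and 31.8 with RANKL, and 20.0 and 24.0 without RANKL. It rose with RANKL by a log2 fold change of 0.63 ± 0.12 (SE, limma adjusted p = 0.00364), but the call ended without RANKL replicate 1 or without no RANKL replicate 1 (0.54 and 0.50). Glud1, glutamate dehydrogenase, was at 142 and 138 FPKM with RANKL + LEA, 142 and 128 with RANKL, and 118 and 120 without RANKL, a log2 fold change of 0.18 ± 0.10 (SE, limma adjusted p = 0.164). Got2, the mitochondrial aminotransferase, had 0.25 ± 0.09 and was likewise not called. The ratio of Got2 to Got1 was 3.32 and 3.34 with RANKL + LEA, 2.50 and 2.82 with RANKL, and 3.75 and 3.19 without RANKL, so that the RANKL libraries alone were below the others.

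**Figure D4:**
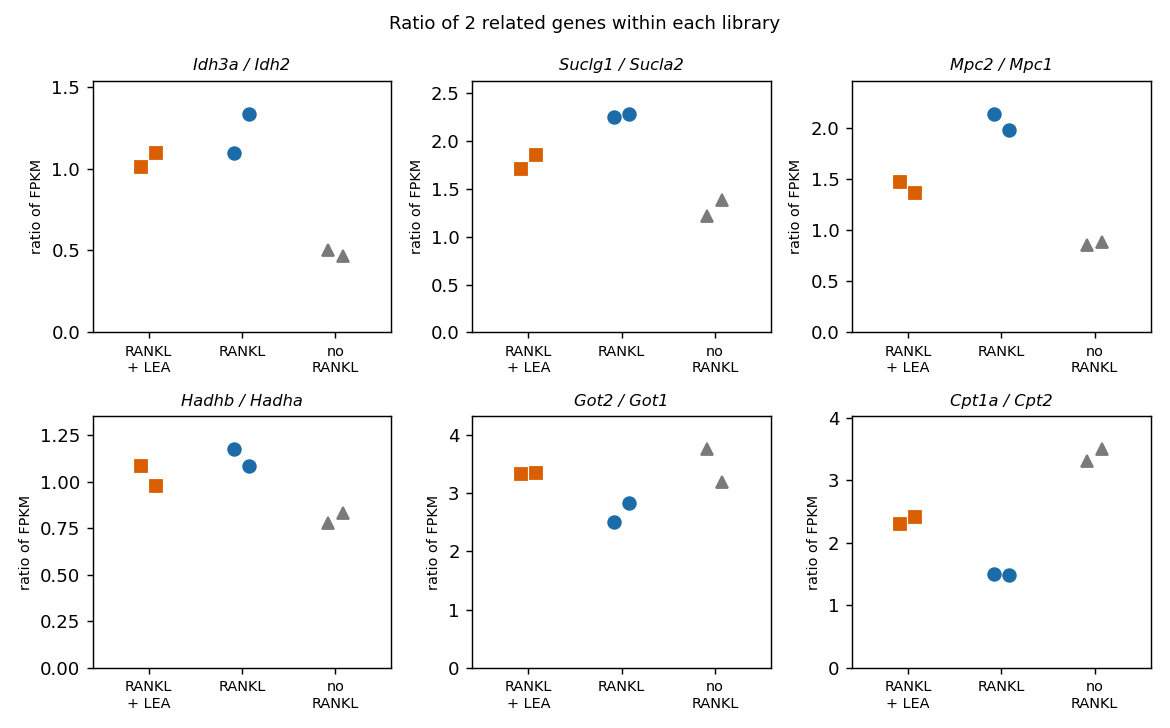
FPKM of one gene divided by that of a related gene in the same library (vertical axis, from 0) for 6 pairs, with squares for RANKL + LEA, circles for RANKL and triangles for no RANKL (2 libraries each). Idh3a over Idh2 is 0.468 and 0.506 without RANKL and above 1 in the other 4 libraries, and Cpt1a over Cpt2 is lowest with RANKL, at 1.51 and 1.48.

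LEA given with RANKL lowered 2 of the 40 genes relative to RANKL alone, Mdh1 and Mdh2, where 1.77% of all genes tested were lower and 6.31% changed in either direction. None was called higher, against 4.54% of all genes. Over all genes that comparison had 540 higher and 211 lower, and 439 and 328 under quantile normalization, 489 and 296 under TMM scaling and 519 and 388 with voom. The set had 20 genes at an unadjusted p under 0.05 in the limma fit, 19 of them lower and 1 higher (Cpt1a). Of all 11905 genes tested, 2807 had such a p in either direction. For the set, voom called 3 lower and 0 higher. The median log2 fold change of the set was -0.32, beside 0.05 over all genes tested. Of the 40 values 35 were negative, against 4991 of the 11905 over all genes tested. The libraries did not overlap for 26 genes that were lower with RANKL + LEA, where 20.6% of all genes stood in that way, and for 1 that was higher (Cpt1a), where 30.1% did. The members' direction moved with the osteoclast markers given above, and that part was not tested.

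Mdh2, at 260 and 241 FPKM with RANKL + LEA against 437 and 351 FPKM with RANKL, had a log2 fold change of -0.65 ± 0.13 (SE, limma adjusted p = 0.0254). Mdh1, at 112 and 94.0 FPKM with RANKL + LEA against 176 and 147 FPKM with RANKL, had -0.65 ± 0.16 (SE, limma adjusted p = 0.0427). As a share of the RANKL mean, Mdh2 stood at 63.5% and Mdh1 at 63.7% with RANKL + LEA. Both calls ended with any 1 of the 4 libraries of these conditions left out, with log2 fold changes of -0.49 to -0.80 and adjusted p up to 0.11 for Mdh2, and -0.52 to -0.78 and up to 0.193 for Mdh1. Both also ended without the filter on low values and with a spread without trend (adjusted p up to 0.0872 for Mdh2 and 0.126 for Mdh1).

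Another 5 genes had an adjusted p under 0.05 without reaching 1.5-fold. Acaa2 had a log2 fold change of -0.56 (limma adjusted p = 0.0214) and passed the fold limit under TMM scaling and voom, at up to -0.61. Idh3a had -0.47, Cs -0.46, Dlat -0.45 and Fh1 -0.39 (limma adjusted p of 0.0334, 0.0335, 0.0407 and 0.0476). At an adjusted p under 0.05 without a fold limit the set thus had 7 genes lower and 0 higher, against 2.7% and 5.93% of all genes.

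By role, the median log2 fold change for LEA was -0.37 in pyruvate entry, -0.41 in the citric acid cycle, -0.24 in fatty acid oxidation and -0.12 in glutamine entry. All 13 cycle genes had negative values, between -0.65 and -0.10. The summed level of the cycle genes with RANKL + LEA was 71.1% of that with RANKL, beside 76.1% in pyruvate entry, 82.8% in fatty acid oxidation and 95.8% in glutamine entry. The cycle sum leans on the 2 genes called lower, since Mdh2 and Mdh1 averaged 394 and 162 of its 1453 FPKM with RANKL. The 5 positive values belonged to Cpt1a, Hadh, Pcx, Decr1 and Glud1. Cpt1a, at 23.2 and 21.9 FPKM with RANKL + LEA against 18.5 and 14.9 FPKM with RANKL, had the largest of them, at 0.44 ± 0.13 (SE, limma adjusted p = 0.0786), and was not called. Pcx and Decr1 were near 0 (0.05 and 0.02) and changed sign under quantile normalization, TMM scaling and voom.

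With RANKL and LEA together, 19 of the 40 genes were still higher than without RANKL, against 15.5% of all genes tested, and none was lower, against 11.8%. The limma fit had 28 genes at an unadjusted p under 0.05 here, 27 of them higher and 1 lower. Of all 11905 genes tested, 5771 had such a p in either direction. For the set, voom called 18 higher and 0 lower. Without the fold limit, 25 were higher, against 22.6% of all genes. The median log2 fold change of the set was 0.55, beside 0.06 over all genes. All 19 were among the 28 that rose with RANKL alone, and the comparisons share their libraries without RANKL. They comprised 5 genes of pyruvate entry, 9 of the cycle, 5 of fatty acid oxidation and none of glutamine entry. The libraries did not overlap for 32 genes that were higher, where 39.7% of all genes stood in that way, and for 1 that was lower (Hadh), where 31.1% did.

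Idh3a had the largest value, with 57.0 and 51.2 FPKM with RANKL + LEA against 19.6 and 20.6 FPKM without RANKL, a log2 fold change of 1.42 ± 0.10 (SE, limma adjusted p = 2.84e-05). Pdhb had 1.38 ± 0.16 (limma adjusted p = 0.000327) and Dlat 1.30 ± 0.11 (limma adjusted p = 5.68e-05). Cpt1a and Etfb differed little between these conditions, at -0.02 ± 0.13 and 0.08 ± 0.15. The calls of Echs1, Etfa and Ogdh ended with a library left out. For Echs1 and Etfa this was no RANKL replicate 1 or RANKL + LEA replicate 1 (down to 0.57 and 0.46), and for Ogdh it was RANKL + LEA replicate 2 (0.49). The call of Echs1 also ended without the filter (adjusted p = 0.0528), that of Etfa under TMM scaling and voom (0.55 and 0.56) and that of Ogdh under TMM scaling (0.58), the last values being just under 1.5-fold. The mean of RANKL + LEA lay between the means of RANKL and no RANKL in 38 of the 40 genes, Pcx and Glud1 being the exceptions. The share of all genes tested that lay so was not counted, so this order is not shown to be particular to the set. As a share of the RANKL mean, the RANKL + LEA mean ran from 63.5% (Mdh2) to 135% (Cpt1a), with a median of 79.8%.

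Genes of a library tended to lie on the same side of its replicate. RANKL replicate 1 was above RANKL replicate 2 in 38 of the 40 genes, against 75.2% of all genes tested. The median difference was 0.24 on the log2 scale, beside 0.13 over all genes tested. RANKL + LEA replicate 1 was above its replicate in 33 genes, against 62.3% of all genes (median 0.15, all genes 0.07). No RANKL replicate 1 was below its replicate in 37 (median -0.13, all genes -0.08), and was above it in 33.1% of all genes. The shift thus ran through each whole library and was larger in the set. Values of different genes in this set are therefore not independent of each other. Without RANKL replicate 1, 21 genes were higher with RANKL than without it, 2 were lower, and 0 differed between RANKL + LEA and RANKL. Over the 11810 genes tested in that fit, 1789 were higher and 2296 lower with RANKL, and 206 were higher and 16 lower with RANKL + LEA than with RANKL.

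Other genes of the same pathways were read from lists, since the set leaves out some steps. Of 10 further citric acid cycle enzymes tested, 6 were higher and 3 lower with RANKL than without it, where 17.8% of all genes tested were called in each direction. The succinate dehydrogenase genes Sdha, Sdhb, Sdhc and Sdhd, which also form complex II of the respiratory chain, rose with RANKL by 1.24, 1.27, 1.08 and 1.55, and Aco1, the cytosolic aconitase, rose by 0.64 (0.55 without RANKL replicate 1, under the limit). For LEA, Sdha and Sdhb had -0.54 and -0.51 and Sdhc and Sdhd -0.37 and -0.46, none of them called, although Sdha passed under TMM scaling and voom (-0.59).

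The genes that fell make NADPH or phosphoenolpyruvate. Pck2, which converts oxaloacetate to phosphoenolpyruvate in mitochondria, was at 5.85 and 5.86 FPKM with RANKL + LEA, 4.34 and 4.55 with RANKL, and 9.77 and 10.4 without RANKL, a log2 fold change for RANKL of -1.17 ± 0.11 (SE, limma adjusted p = 8.05e-05). Nnt, the transhydrogenase of the inner membrane, had -0.67 ± 0.11 (SE, limma adjusted p = 0.00154), and -0.58 without RANKL replicate 2. Me1, the cytosolic malic enzyme, had -0.68 ± 0.15 (SE, limma adjusted p = 0.00706), and -0.47 without RANKL replicate 2. Its value for LEA against RANKL was 0.62 ± 0.15 (SE, limma adjusted p = 0.046), a call that ended with each library left out other than RANKL replicate 1 (0.41 to 0.63, adjusted p up to 0.185) and under 10 of the other alternatives. Idh1, the cytosolic isocitrate dehydrogenase, was not called in any comparison, and Me3 was too low to test.

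Of 11 tested carriers and regulators of pyruvate use, 6 were higher and 1 lower with RANKL, beside 17.8% of all genes tested in each direction. The subunits of the mitochondrial pyruvate carrier, Mpc1 and Mpc2, moved unequally. Mpc2 was at 50.1 and 44.3 FPKM with RANKL + LEA, 69.5 and 76.1 with RANKL, and 22.3 and 26.8 without RANKL, and rose with RANKL by a log2 fold change of 1.57 ± 0.13 (SE, limma adjusted p = 3.26e-05). Mpc1 was at 34.1 and 32.4 FPKM with RANKL + LEA, 32.4 and 38.4 with RANKL, and 26.0 and 30.4 without RANKL, with 0.33 ± 0.13 (SE, limma adjusted p = 0.0627). The ratio of Mpc2 to Mpc1 was 1.47 and 1.37 with RANKL + LEA, 2.14 and 1.98 with RANKL, and 0.857 and 0.884 without RANKL, with no overlap between conditions. Mpc2 fell with LEA by 0.63 ± 0.13 (SE, limma adjusted p = 0.0265), a call that ended with any 1 of the 4 libraries left out (adjusted p up to 0.151), without the filter on low values or with a spread without trend (adjusted p up to 0.0785).

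Pyruvate dehydrogenase kinases, which switch the complex off, rose alongside its subunits. Pdk1, Pdk2 and Pdk3 had log2 fold changes for RANKL of 0.65, 1.001 and 1.11 (limma adjusted p of 0.00222, 0.000291 and 0.00013), that of Pdk1 being 0.54 without RANKL replicate 1, and Pdk4 was too low to test. Pdpr, a regulator of the opposing phosphatase, rose by 1.30 (limma adjusted p = 0.00035), whereas Pdp1, a catalytic subunit of that phosphatase, had -0.67 (limma adjusted p = 0.00728) and lost its call without no RANKL replicate 2 (-0.54, adjusted p = 0.0661) and with a pseudocount of 1 (-0.50). Lipt1, which transfers the lipoyl group to these complexes, rose by 1.002 (limma adjusted p = 0.016), with adjusted p up to 0.108 without RANKL replicate 1 or no RANKL replicate 1 and 0.0585 without the filter.

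Of 27 further fatty acid oxidation genes tested, 11 were higher and 2 lower with RANKL, against 17.8% of all genes tested in each direction. Bdh1, which interconverts the ketone bodies, was at 10.7 and 6.99 FPKM with RANKL + LEA, 14.6 and 11.5 with RANKL, and 0.796 and 0.466 without RANKL. Its log2 fold change for RANKL was 4.20 ± 0.27 (SE, limma adjusted p = 9.62e-06), and it had 118 and 70 reads in the libraries without RANKL. Acsl1, an acyl-CoA synthetase that activates long-chain fatty acids, was at 33.5 and 32.3 FPKM with RANKL + LEA, 36.7 and 32.0 with RANKL, and 8.61 and 8.04 without RANKL, a log2 fold change for RANKL of 2.03 ± 0.11 (SE, limma adjusted p = 4.05e-06). Its LEA and RANKL libraries overlapped. Hsd17b10, a mitochondrial dehydrogenase of branched and short chains, rose by 1.71 (limma adjusted p = 6.22e-06).

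The 2 that fell were Acox3, a peroxisomal oxidase, at -1.43 (limma adjusted p = 1.97e-05), and Ehhadh, a peroxisomal bifunctional enzyme, at -1.10 (limma adjusted p = 0.0145, and up to 0.0895 without RANKL replicate 2 or no RANKL replicate 2, and -0.52 with a pseudocount of 1). Slc25a20, the carnitine-acylcarnitine carrier, had 0.53 ± 0.14 (SE, limma adjusted p = 0.0138) and was under 1.5-fold. LEA lowered Acsl3 (-1.09, limma adjusted p = 0.00374) and Acad10 (-0.98, limma adjusted p = 0.014) of this list relative to RANKL, 2 of 27 genes against 1.77% of all genes tested. The Acad10 call ended with any 1 of the 4 libraries left out (adjusted p up to 0.092) or without the filter on low values (adjusted p = 0.0651). Ehhadh, Acsl3 and Acad10 were named after their values were seen.

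Of 11 further genes of glutamine and aspartate handling tested, 5 were higher and 0 lower with RANKL, beside 17.8% of all genes tested in each direction. At an unadjusted limma p under 0.05, 6 were higher and 0 lower, where 6634 of all 11905 genes passed in either direction. Slc1a5, a glutamine carrier of the cell surface, was at 53.0 and 49.4 FPKM with RANKL + LEA, 82.2 and 72.5 with RANKL, and 21.6 and 22.1 without RANKL. It rose with RANKL by a log2 fold change of 1.82 ± 0.11 (SE, limma adjusted p = 5.66e-06) and fell with LEA by 0.59 ± 0.11 (SE, limma adjusted p = 0.0177), the second call ending with any 1 of the 4 libraries left out (adjusted p up to 0.0863), with a pseudocount of 1 (-0.58) or without the filter on low values (adjusted p = 0.0504). Glul, glutamine synthetase, rose with RANKL by 0.80, and the shuttle carriers Slc25a11 and Slc25a13 by 0.73 and 0.74.

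Promoter windows (250 bases before to 50 after the start, RefSeq, GRCm38.p6) were at hand for 35 of the 40 genes and were read for letters that factors of mitochondrial genes are known to bind, on both strands. The estrogen-related receptor element TCAAGGTCA was in a window of 0 of the 35 genes, against 0.466% of all 27025 genes with windows of the same length, and its core AAGGTCA, which lies inside it, was in 3 (Acadm, Got1 and Ogdh) against 5.38%. The ETS element CCGGAAGT was in 2 (Cpt2 and Dlst) against 4.31%, and the NRF1 element, GCGCA and GCGC with any 1 base between them, in 4 (Dld, Etfb, Etfdh and Sucla2) against 5.19%. The NRF1 matches of the genes of electron transfer and of succinyl-CoA ligase are shown because these genes carry the same element and differed in their response to RANKL, with the element in capitals and 28 bases on each side, on the strand of the gene, 5′ to 3′. Etfdh lies at chr3:79628858-79628923 (minus strand), Etfb at chr7:43444033-43444098 (plus strand) and Sucla2 at chr14:73552741-73552806 (plus strand, the element on the opposite strand).
Etfdh: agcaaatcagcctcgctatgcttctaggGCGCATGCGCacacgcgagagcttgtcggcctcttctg
Etfb: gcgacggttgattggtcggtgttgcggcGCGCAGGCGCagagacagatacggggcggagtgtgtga
Sucla2: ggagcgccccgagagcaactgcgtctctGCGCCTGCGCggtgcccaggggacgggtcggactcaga
A match in letters does not show binding. With the element present, the log2 fold changes for RANKL were 1.43 for Etfdh, 0.26 for Etfb (not called), 0.72 for Sucla2 and 1.59 for Dld. Over the 40 genes they ran from -0.49 to 1.89. As given above, Etfb was counted on a noncoding transcript, and 58.2% of its annotated exon bases are shared with Gm45233 and Mir7051. Whether the element had a part in the response was not tested.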

How the data were processed

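The authors aligned paired-end reads with HISAT2 (mm10) and deposited 1 table of FPKM values for 24940 genes, made with HOMER from reads of either strand on the exons of a single RefSeq transcript for each gene, with no pooling of replicates. The submitters' processing notes name HISAT2, HOMER and DESeq2 without a version. Low FPKM values were whole multiples of the value of 1 read (100% within 0.1 read), which gave the depth of each library and the reads behind each value. Shares of exon bases were taken over all annotated exons within the span of a gene, not only those of the single transcript counted.

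From these values log2(FPKM + 0.1) was fitted with limma 3.58.1 in R 4.3.3 (eBayes, trend set). The filter asked for 0.5 FPKM in at least 2 libraries and kept 11905 genes. The 6 libraries entered 1 model with a common spread and 3 residual degrees of freedom. A call needed a Benjamini-Hochberg adjusted p under 0.05 within a comparison and at least 1.5-fold. Fold changes are on the log2(FPKM + 0.1) scale, which understates low genes. The fit was tested on simulated data.

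The 40 genes, the other pathway lists and the markers were chosen with earlier results of these data known. Full values were given to the 4 called genes of each role with the largest change for RANKL, to every gene called for LEA against RANKL or called against the direction of its role's median (none), to Cs, Pdha1, Ogdh, Cpt1a and Glud1, and to named steps and up to 4 genes of each other list with the smallest p. The values of further genes of the set were added to account for all 40. Alternatives were another pseudocount, filter or scaling, the replicate block, the libraries in the fit, the spread, the fold limit, voom and each library left out. Tables were made with Python 3.11.15, numpy 2.4.6 and pandas 2.3.3, and figures with matplotlib 3.10.9. Trac was not used here, and a few genes of the pathway and marker lists are counted but not reported here.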

Additional observations from a re-analysis of the deposited data

How the results depend on the processing

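For RANKL against no RANKL, the count of 28 genes higher was 21 to 30 with 1 library left out (21 without RANKL replicate 1, and 21 of the 28 called in every such fit), 32 at adjusted p alone, 18 at a 2-fold limit and 27 to 29 under the other alternatives. The count of 0 lower became 2 without RANKL replicate 1 and at adjusted p alone (Cpt1a and Hadh). For RANKL + LEA against RANKL, the count of 2 lower became 0 without the filter on low values, 0 with a spread without trend, 0 at a 2-fold limit and 7 at adjusted p alone, and ranged from 0 to 2 with 1 library left out. For RANKL + LEA against no RANKL, the count of 19 higher became 11 at a 2-fold limit and 25 at adjusted p alone. It also moved both ways with 1 library left out. Echs1, Etfa and Ogdh were lost, as given above. Of the genes not called with all libraries, Acadm, Hadhb and Sucla2 passed 1.5-fold there, with log2 fold changes up to 0.61, 0.65 and 0.70. The fold limits change these counts by construction, and the cause of the other changes was not tested.

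Replicate numbers were shared between conditions. Deviations of same-numbered libraries from their condition means had correlations of -0.08, 0.12 and -0.25 between conditions. With 2 libraries per condition, these values cannot show whether same-numbered libraries shared a mouse or culture, and the pairing stays unknown. With a replicate block, 1 gene stayed lower for LEA against RANKL (Mdh2, with the call of Mdh1 lost), and the counts of 28 and 19 stayed the same.

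No value of the 40 genes that was called changed sign. Among those not called, for LEA against RANKL, Pcx, Hadh, Etfb and Glud1 changed sign without RANKL replicate 2, and Decr1 without RANKL replicate 1 or RANKL + LEA replicate 1. For RANKL + LEA against no RANKL, Cpt1a, Acads and Decr1 changed sign with a library left out. The quasi-likelihood count test planned for the recovered reads was not run, because the deposited unit is FPKM. With 2 libraries per condition, groups were too small to test for outlying libraries.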
